A study of Mus musculus with 6 samples.

Results

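The genes described here encode the standard proteasome of the mouse and were chosen by a rule on symbols that uses no measured value. They are the 36 protein-coding genes of the deposited count table named Psma, Psmb, Psmc or Psmd with a number, without the immunoproteasome catalytic genes Psmb8, Psmb9 and Psmb10, out of 54532 genes in all. Of the 36, 35 had enough counts to be tested among 12296 genes, and Psmb11 did not. N9 is an immortalized line of mouse microglia, and all libraries came from this 1 line grown in RPMI 1640 medium with serum. The control group was 3 libraries of unstimulated cells, and the LPS group was 3 libraries of cells given lipopolysaccharide, the outer-membrane endotoxin of gram-negative bacteria, at 1 µg/ml for 6 h. No other genotype, agent or time was part of this comparison. The labels number the replicates 1 to 3 without saying that they were separate cultures, so the p-values measure only the spread between these samples, which may be technical.

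The proteasome is the main protease of the cytosol and nucleus and degrades proteins that carry ubiquitin chains. Its 20S core is a barrel of alpha rings, which form the gate, around beta rings, in which 3 kinds of subunit cut the substrate. The 19S regulatory particle caps the barrel: its lid and non-ATPase subunits bind ubiquitin and remove it, and its ring of ATPases unfolds the substrate and opens the gate. In cells exposed to interferon or other inflammatory signals, inducible catalytic subunits replace the constitutive ones during assembly, and the peptides made are loaded on MHC class I molecules.

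By role, the rule took 8 alpha ring genes, 4 catalytic and 4 structural beta ring genes, 6 genes of the ATPase ring, 3 non-ATPase genes of the 19S base, 8 lid genes and 3 genes for chaperones that help assemble the base and leave the finished particle (Psmd5, Psmd9 and Psmd10). Not every member is a constitutive subunit of all tissues. Psma8, the form of alpha4 known from testis, was at 7.29 ± 0.04 CPM (SD, n = 3; CPM is the count scaled to library size) in control cells, against 334 ± 16.2 CPM for Psma7, the usual alpha4. Psmb11, the form of beta5 known from the thymus, was counted 1, 2 and 4 times in control and 1, 1 and 0 times in LPS libraries, near the limit of 3 counts (0.161 to 0.19 CPM) that a count of 0 allows. The other 34 members lay between 49.6 and 592 CPM on average.

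The libraries held between 16363767 and 17956772 counts on genes, and the members took between 0.693% and 0.738% of them in control libraries and between 0.712% and 0.738% in LPS libraries. Of 14 microglia and macrophage markers, 11 passed the filter on low counts, while Aif1, P2ry12 and C1qa had at most 11 counts in any library, and the summed counts of the list were 38006 to 41834 in control and 38811 to 39790 in LPS libraries. The 12 hepatocyte markers summed to 7 counts in control replicate 1, to 264 in replicate 2 and to 487 in replicate 3, and to 4 to 12 counts in LPS libraries, with Alb the most abundant at 155 and 292 counts in control replicates 2 and 3. The part of these reads in the results below was not tested, and where a member's call was lost without both libraries, its value in that fit is given beside it. Of 6 neuronal markers, 5 had at most 10 counts everywhere, as had 3 of 6 astrocyte and 4 of 6 oligodendrocyte markers. The neuronal sum was 65 to 86 counts in control and 184 to 232 in LPS libraries, most of it Tubb3, and the oligodendrocyte sum was 849 to 931 and 686 to 710. The part of these counts in the results was not tested either. In bulk RNA, fewer cells of a type and less RNA per cell cannot be told apart.

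LPS was followed by small increases in 11 of the 35 tested members and by a decrease in none that passed the test. A gene was called at an adjusted p under 0.05 in edgeR's quasi-likelihood test, with Benjamini-Hochberg adjustment over all genes tested. The 11 called members are 31.4% of those tested, beside 18.7% of all genes called higher, and the 0 called lower stand beside 15.7% of all genes. At an unadjusted p under 0.05 there were 15 members, of which 1, Psma8, was lower, and DESeq2 called 10 higher and 0 lower. Among the 4444 tested genes within the range of 49.6 to 592 CPM, where counting error is as small as for the members, 27.7% were called higher and 18.7% lower. No member was a differentially expressed gene by the study's rule, an adjusted p under 0.05 with an absolute log2 fold change over 1.5, which 2.65% of all genes passed.

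The log2 fold change was above 0 in 33 of 35 members (94.3%) and in 50.6% of all genes tested, and in 2516 of the 4444 genes in the members' CPM range. The median was 0.099 over the members, 0.0036 over all genes and 0.030 over those in that range, and the members' median was 0.098 without Psmd10 and Psmb6. The libraries did not overlap in 14 members with LPS higher (40.0%, beside 23.7% of all genes and 33.3% of those in the CPM range) and in 1 with LPS lower (2.86%, beside 21.5% and 23.1%). The 95% interval of the fold change lay within 1.2-fold either way, a log2 change of 0.263, in 24 members (68.6%), beside 29.8% of all genes and 55.1% of those in the same CPM range. The plot of fold changes by role shows most members inside that band.

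**Figure D1:**
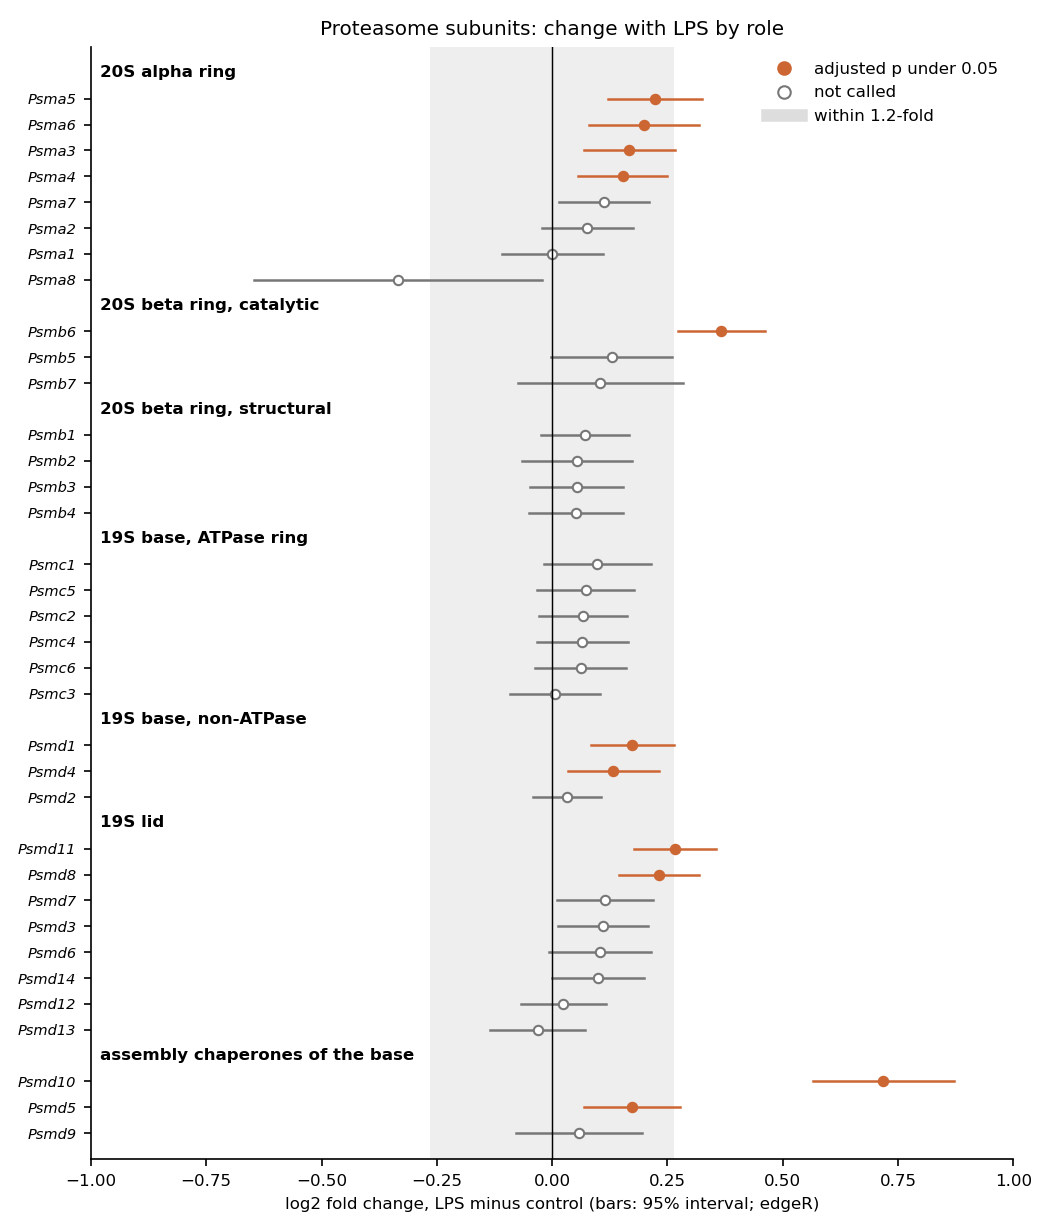
Log2 fold change of LPS over control for the 35 tested members, grouped by role, with 95% intervals from edgeR (n = 3 and 3). Filled points passed an adjusted p under 0.05, and the grey band is 1.2-fold either way: Psmd10 and Psmb6 lie wholly to its right.

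The size of these changes depended on how the libraries were scaled. The count of members without overlap used CPM scaled by TMM factors and was not repeated with total counts. With total counts in place of TMM factors (1.034 to 1.036 in control and 0.9646 to 0.97 in LPS libraries), the median of all genes moved to -0.095 and that of the members to 0.0012, so the members' median stood 0.096 above that of all genes by both scalings. By total counts 4 members were called higher (Psmb6, Psmd8, Psmd10 and Psmd11) and 2 lower (Psma8 and Psmd13), and 15 members turned from above to below 0. Over all genes the calls were 2294 higher and 1927 lower with TMM, 1845 and 2497 with upper quartile factors, and 1520 and 3342 with total counts. Without control replicate 2 there were 8 members called higher, and the median over all tested members was 0.063. Without control replicate 3 there were 6, without LPS replicate 1 there were 7, and without control replicates 2 and 3 together, which leaves 1 control library assumed to vary like the others, there were 6 and the median over the tested members was 0.035. The members' median level against the control mean was 0.045 on the log2 scale in control replicate 1, -0.029 in control replicate 2 and -0.016 in control replicate 3, and between 0.062 and 0.13 in the LPS libraries. Psmb6 and Psmd10 were called higher under all 18 alternatives tried, and Psmd8 and Psmd11 under all but the test against a 1.2-fold change. Psma5 and Psmd1 lost their call in that test and with total counts, and under no other alternative.

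**Figure D2:**
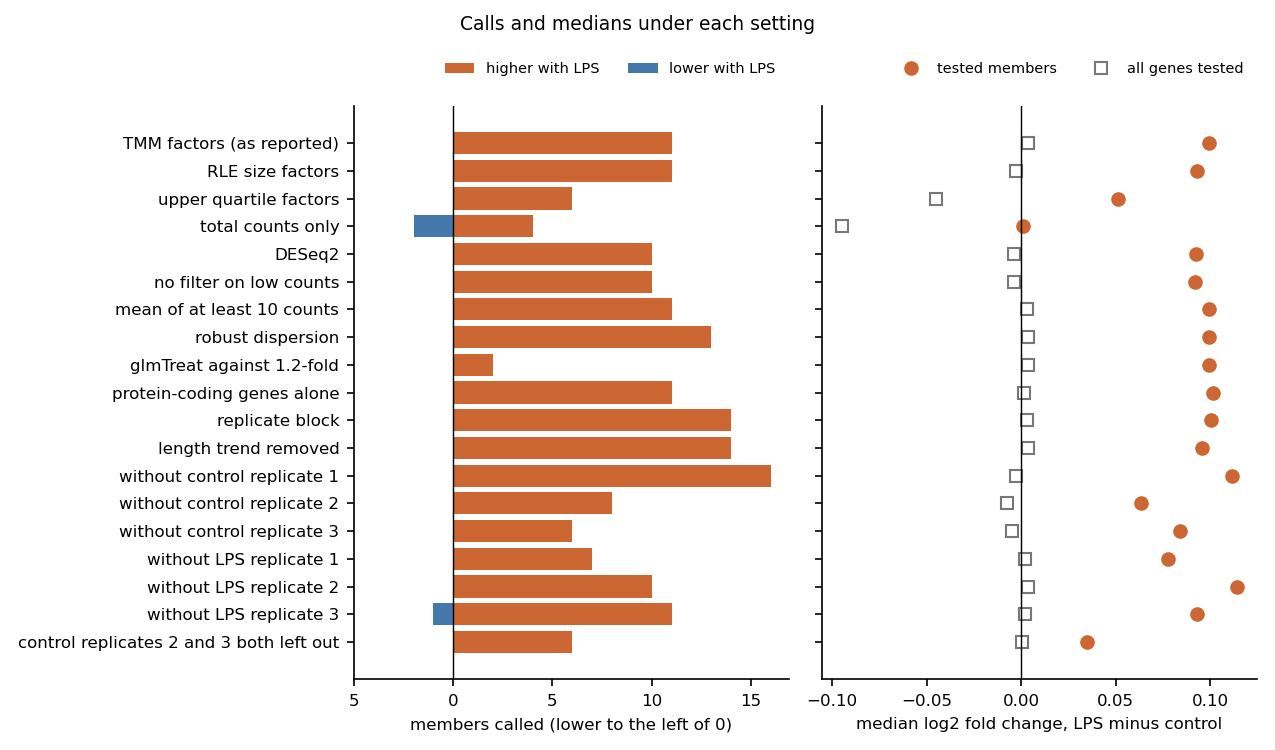
Left, number of members called higher (right of 0) and lower (left of 0) with LPS under each processing setting; right, median log2 fold change of the tested members and of all genes tested. The members lie to the right of all genes in each setting, and both shift left with total counts.

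The largest change among the members belonged to an assembly chaperone. Psmd10 (chrX:140948429-140956728 on the minus strand, mm10), which encodes gankyrin, binds an ATPase subunit while the 19S base is built and has been studied as an oncoprotein. It was at 39.2, 33.05 and 40.3 CPM in control and at 62.9, 61.4 and 60.9 CPM in LPS libraries, so all LPS libraries were higher than all control libraries. The log2 fold change was 0.72 (SE 0.07, edgeR adjusted p = 1.6e-06), from 37.5 ± 3.92 to 61.7 ± 1.03 CPM (SD, n = 3 each). Psmd5, the chaperone S5b, was at 84.1, 80.1 and 80.4 CPM in control and 95.7, 88.2 and 91.9 CPM in LPS libraries, again without overlap, with a log2 fold change of 0.17 (SE 0.05, edgeR adjusted p = 0.013). It was not called with upper quartile factors, with total counts, in the test against a 1.2-fold change, without control replicate 3, without LPS replicate 1 or without control replicates 2 and 3 together, where the log2 fold change was 0.13. Psmd9, the chaperone p27, had a log2 fold change of 0.058 (SE 0.064) that was not called. The 95% intervals of Psmd10, 0.56 to 0.87, and of Psmd9, -0.078 to 0.19, did not overlap.

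In the catalytic beta ring, only the caspase-like subunit was called among the 3 tested. Of all genes 18.7% were called higher, and of those in the members' CPM range 27.7%. Psmb6 (chr11:70525367-70527858 on the plus strand, mm10), which encodes beta1, was at 364, 337 and 340.0 CPM in control and at 451, 429 and 462 CPM in LPS libraries, and the groups did not overlap. Its log2 fold change was 0.37 (SE 0.04, edgeR adjusted p = 1.1e-05), from 347 ± 14.5 to 447 ± 16.8 CPM (SD, n = 3 each). Psmb5, the chymotrypsin-like beta5, was at 138.5, 117 and 119 CPM in control and 138.5, 131 and 140.2 CPM in LPS libraries, and control replicate 1 overlapped the LPS range. Its log2 fold change was 0.13 (SE 0.06, edgeR adjusted p = 0.12), though with a replicate block it was called. Psmb7, the trypsin-like beta2, was at 217, 169 and 163 CPM in control and 198, 186 and 205 CPM in LPS libraries, and control replicate 1 was the highest of all. Its log2 fold change was 0.10 (SE 0.08, edgeR adjusted p = 0.38). Control replicate 1 set both values: without it the log2 fold change was 0.20 for Psmb5 and 0.23 for Psmb7 and both were called, and with it as the lone control library they were -0.019 and -0.14. Psmb7 shares 405 exonic bases with Nek6 on the other strand, which had 12900 counts over the libraries, and whether the counting used strand is not given in the sources used here.

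**Figure D3:**
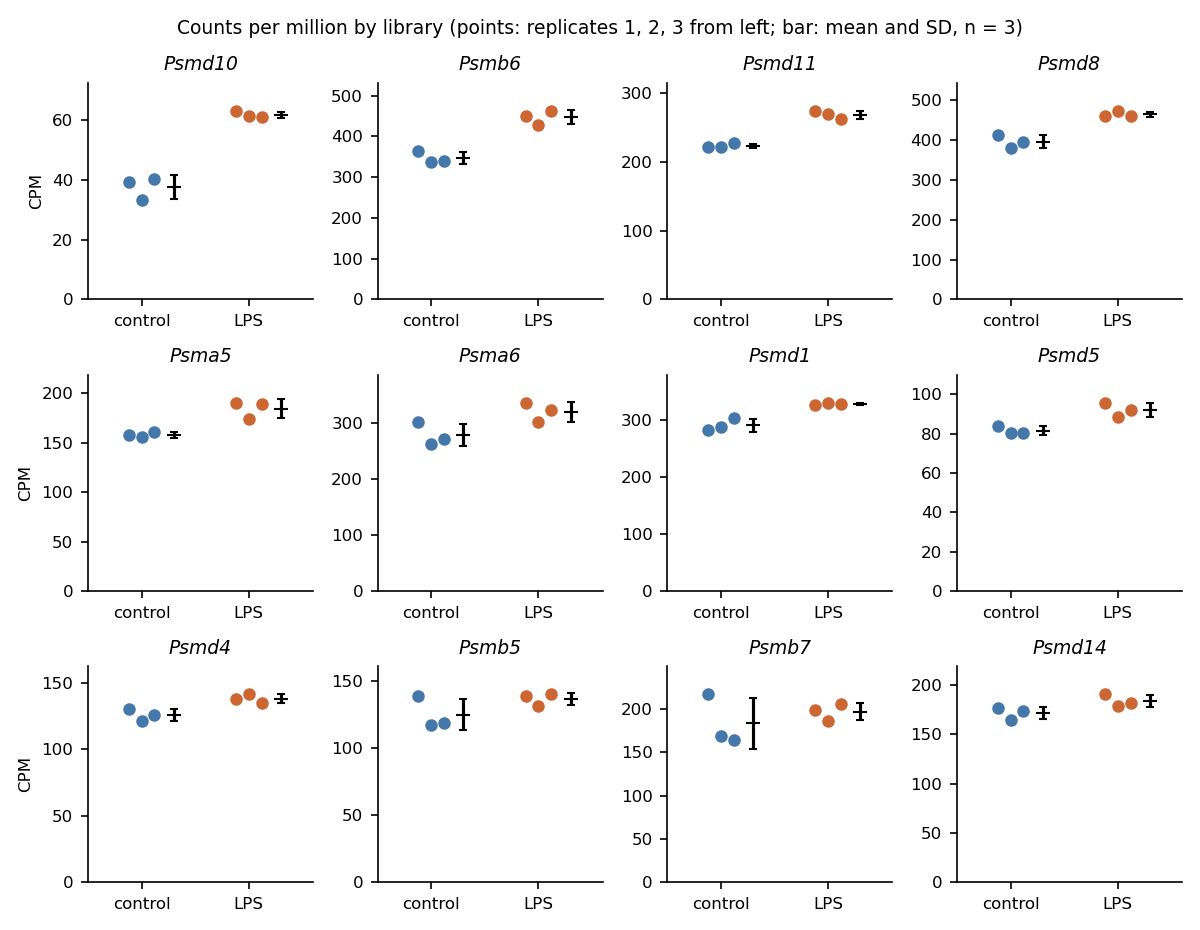
CPM (scaled with TMM) of 12 members in each library, replicates 1 to 3 from left to right, with the mean and SD (n = 3) at the side of each group. The groups are separate in Psmd10, Psmb6, Psmd11, Psmd8, Psma5, Psmd1, Psmd5, Psmd4 and Psmd14 and overlap in Psma6, Psmb5 and Psmb7.

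For the promoters of these genes, RefSeq sequence on GRCm38.p6 was at hand for 29 of the 36 members, from 250 bases before to 50 bases after each start. The stretches before the start are shown for Psmb6 and Psmd10, the members of largest change, and for Psmb5, the other beta subunit with the same motif as Psmb6. Capitals mark TGACNNNGC, the core of the antioxidant response element that Nfe2l1 and Nfe2l2 bind, in Psmb6 and Psmb5, and CCAAT, the box bound by NF-Y, read as ATTGG on the other strand, in Psmd10. The Psmb6 stretch is chr11:70525107-70525356 on the plus strand, that of Psmb5 chr14:54617996-54618245 on the minus strand and that of Psmd10 chrX:140956712-140956906 on the minus strand, ended where Atg4a starts on the other strand. The last bases of the Psmb5 and Psmd10 stretches lie in the first exon by the GENCODE annotation, which starts a little upstream of the RefSeq one.
Psmb6: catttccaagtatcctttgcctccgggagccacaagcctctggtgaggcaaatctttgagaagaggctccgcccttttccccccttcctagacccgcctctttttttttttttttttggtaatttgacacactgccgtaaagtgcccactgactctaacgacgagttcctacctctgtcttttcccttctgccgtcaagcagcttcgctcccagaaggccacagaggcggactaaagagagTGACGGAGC
Psmb5: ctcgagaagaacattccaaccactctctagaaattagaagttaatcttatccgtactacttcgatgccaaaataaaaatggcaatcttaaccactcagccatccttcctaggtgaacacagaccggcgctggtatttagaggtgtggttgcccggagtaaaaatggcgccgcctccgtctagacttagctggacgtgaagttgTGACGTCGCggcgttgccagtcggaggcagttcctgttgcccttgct
Psmd10: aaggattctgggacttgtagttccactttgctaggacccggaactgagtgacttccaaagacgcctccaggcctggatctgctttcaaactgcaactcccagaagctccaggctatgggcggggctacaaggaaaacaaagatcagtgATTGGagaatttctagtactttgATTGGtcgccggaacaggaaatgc

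The first base of TGACGGAGC lay 9 bases before the start of Psmb6, and that of TGACGTCGC 47 bases before the start of Psmb5. In the whole window of 300 bases, searched on both strands, TGACNNNGC was found in 5 of the 29 members (17.2%), beside 14.0% of all 27025 genes with a promoter sequence and 17.3% of the tested protein-coding ones. CCAAT was found in 12 members (41.4%), beside 41.1% and 43.7%. GAAANNGAA, the core of the interferon-stimulated response element, was found in 5 members (17.2%), beside 9.76% and 8.68%. No match of 1 motif overlapped a match of another in these windows. Of the 11 members called higher, all of which had a sequence, 4 held CCAAT, 1 held TGACNNNGC and 1 held GAAANNGAA. The shares of the first 2 motifs in members were thus close to those in other promoters. A match describes the letters of the window and not a bound site.

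Psmd10 and Atg4a start back to back on opposite strands. Atg4a encodes a protease of autophagy, and the windows of the pair share 295 bases. Atg4a, named for this position, was at 27.7 ± 2.2 CPM in control and 38.0 ± 2.05 CPM in LPS libraries, a log2 fold change of 0.45 (SE 0.08, n = 3 each, edgeR adjusted p = 3.4e-04), and no exon of the annotation overlapped those of Psmd10. Of the 5 members whose window overlaps that of a gene on the other strand, the neighbour was called higher for Psmd10 and for Psmc5 (Ftsj3, log2 fold change 0.14) and was not called for Psma2 (Mrpl32, -0.087), Psma7 (Ss18l1, 0.19) and Psmd13 (Sirt3, -0.35). Of these members themselves, only Psmd10 was called. Among all genes tested, 18.7% were called higher, and the part of the shared windows in these changes was not tested.

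In the alpha ring, 4 of 8 members were called higher (beside 18.7% of all genes and 27.7% of those in the members' CPM range) and the median log2 fold change was 0.13. Psma5, which encodes alpha5, was at 158, 155.5 and 161 CPM in control and 190.5, 174 and 189.55 CPM in LPS libraries, without overlap, a log2 fold change of 0.22 (SE 0.05, edgeR adjusted p = 0.002). Psma6, which encodes alpha1, was at 300.6, 262 and 270.6 CPM in control and 335, 300.2 and 322 CPM in LPS libraries, so that control replicate 1 lay just above LPS replicate 2. Its log2 fold change was 0.20 (SE 0.06, edgeR adjusted p = 0.012). Psma3 (alpha7) rose by 0.17 and Psma4 (alpha3) by 0.15 on the log2 scale, with adjusted p of 0.011 and 0.016 in edgeR. The calls of Psma3, Psma4 and Psma6 were lost with upper quartile factors, with total counts, in the test against a 1.2-fold change and when control replicate 3 or LPS replicate 1 was left out, and those of Psma4 and Psma6 also without control replicate 2. All 3 were lost too without control replicates 2 and 3 together, where the log2 fold changes were 0.13 for Psma3, 0.13 for Psma4 and 0.087 for Psma6. Psma7 (alpha4), Psma2 (alpha2) and Psma1 (alpha6) had values of 0.11, 0.076 and 0.00071 that were not called. Psma7 was called in 4 of 18 alternatives: robust dispersion, a replicate block, removal of the gene length trend, and without control replicate 1, at 0.14. Psma8 had 124, 129 and 136 counts in control and 87, 85 and 109 in LPS libraries, the only member with all LPS libraries lower, and its log2 fold change of -0.33 (SE 0.15) was not called (edgeR adjusted p = 0.093). It was called lower without LPS replicate 3 and with total counts.

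The 4 structural subunits of the beta ring do not cut substrate and had the smallest median of the roles, 0.054. Psmb1 (beta6), Psmb2 (beta4), Psmb3 (beta3) and Psmb4 (beta7) had log2 fold changes of 0.051 to 0.071, none called, and all of their 95% intervals lay within 1.2-fold either way. The 6 ATPases that form the unfolding ring of the base (Psmc1 to Psmc6, Rpt2, Rpt1, Rpt5, Rpt3, Rpt6 and Rpt4) gave a like picture, with 0.0069 for Psmc3 to 0.10 for Psmc1, none called, and all 6 intervals within 1.2-fold. Psmc1 alone of these 10 genes was called in an alternative: without control replicate 1 it was 0.15 (edgeR adjusted p = 0.0275), and without control replicate 2 it was 0.040 and not called. The largest upper bound of these 10 genes was 0.21, for Psmc1. Of all genes in the members' CPM range, 27.7% were called higher and 55.1% had an interval within 1.2-fold. Psmc3 shares 215 exonic bases with Slc39a13 on the other strand.

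The non-ATPase part of the base holds the scaffold subunits Rpn1 and Rpn2 and the ubiquitin receptor Rpn10. Psmd1 (Rpn2) was at 281, 287 and 303 CPM in control and 325, 329 and 328 CPM in LPS libraries, without overlap, a log2 fold change of 0.17 (SE 0.04, edgeR adjusted p = 0.0047). Psmd4 (Rpn10) was at 131, 121 and 126 CPM in control and 138, 141 and 135 CPM in LPS libraries, also without overlap. Its log2 fold change was 0.13 (SE 0.05, edgeR adjusted p = 0.038), and this call was lost in 10 of 18 alternatives, among them DESeq2, upper quartile factors, total counts and the fits without control replicate 2, control replicate 3, LPS replicate 1 or LPS replicate 2. Without control replicates 2 and 3 together it was 0.081 and not called. Psmd2 (Rpn1), the member with the most counts, had all LPS libraries above all control libraries in CPM scaled by TMM. Its log2 fold change was 0.032 (SE 0.034) and was not called. With total counts it was -0.066 and all LPS libraries lay below all control libraries, so its direction depended on the scaling.

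The lid removes ubiquitin chains before a substrate enters the core. Psmd11 (Rpn6), a scaffold of the lid, was at 221, 221 and 227 CPM in control and 273.5, 269 and 262 CPM in LPS libraries, and the groups were far apart against their spread. Its log2 fold change was 0.27 (SE 0.04, edgeR adjusted p = 1.4e-04). Psmd8 (Rpn12), which joins the lid last, was at 413, 380.4 and 396 CPM in control and 462, 473 and 462 CPM in LPS libraries, without overlap, a log2 fold change of 0.23 (SE 0.04, edgeR adjusted p = 4.0e-04). Psmd14 (Rpn11), the deubiquitinase of the lid, was at 176, 164 and 173 CPM in control and 191, 179 and 181 CPM in LPS libraries. These did not overlap either, but the log2 fold change of 0.10 (SE 0.05) was not called (edgeR adjusted p = 0.12). Psmd7 (Rpn8), Psmd3 (Rpn3) and Psmd6 (Rpn7) had values of 0.12, 0.11 and 0.10, Psmd12 (Rpn5) 0.024 and Psmd13 (Rpn9) -0.031, none of them called. Psmd7 was called in 3 of 18 alternatives: a replicate block, removal of the gene length trend, and without control replicate 1, at 0.15. Psmd3 was called in 3 as well: robust dispersion, removal of the gene length trend, and without LPS replicate 1, at 0.14. Psmd13 shares 342 exonic bases with Sirt3 on the other strand, which had 825 counts.

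Shares within the member total do not depend on scaling between libraries. Of all counts on the 36 members, Psmb6 took 4.98% to 5.08% in control and 5.81% to 6.17% in LPS libraries, and Psmd10 took 0.493% to 0.591% and 0.814% to 0.831%. Psmd8 and Psmd11 also had higher shares in all LPS libraries. Psmd5 did so only barely, with 1.1938% in control replicate 2 and 1.1939% in LPS replicate 2. In contrast, 11 members had lower shares in all LPS libraries, among them Psmd2, from 8.32% to 8.76% in control to 7.82% to 8.08%, and Psmd13, Psma1 and Psmc3. Shares sum to 100%, so a rise in some members lowers the shares of the others.

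Levels of different genes were compared per kilobase of the gene length in the deposited table (CPM per kilobase). In control cells the 34 members other than Psma8 and Psmb11 ranged from 6.94 ± 0.53 for Psmd9 to 225 ± 16.3 for Psma6, with Psmb6 next at 185 ± 7.74 and Psmd2 at 145 ± 2.6 (SD, n = 3 each). The highest was 32 to 33.1 times the lowest in each control library and 34.6 to 36.9 times in each LPS library. The chaperones Psmd5, Psmd9 and Psmd10, which are not part of the finished particle, were the lowest 3 of the 34. The lowest subunit was Psmc2 at 33.6, and within the alpha ring the control means ran from 35.3 for Psma3 to 225 for Psma6. Psmb5 was at 139 ± 13.1 and Psmd8 at 130 ± 5.33 in control cells, and these neighbours in the order did not differ beyond their spread. The deposited length is the union of all exons for 35 of the members, and with the length of the principal transcript the order changed. Psmb6 was then first at 435 ± 18.1, ahead of Psma7 at 366 ± 17.7 and Psma6 at 267 ± 19.3. By that length the lowest subunit of the 34 was Psma3 at 48.3 ± 1.21, and Psmc2 was at 94.6 ± 1.78.

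**Figure D4:**
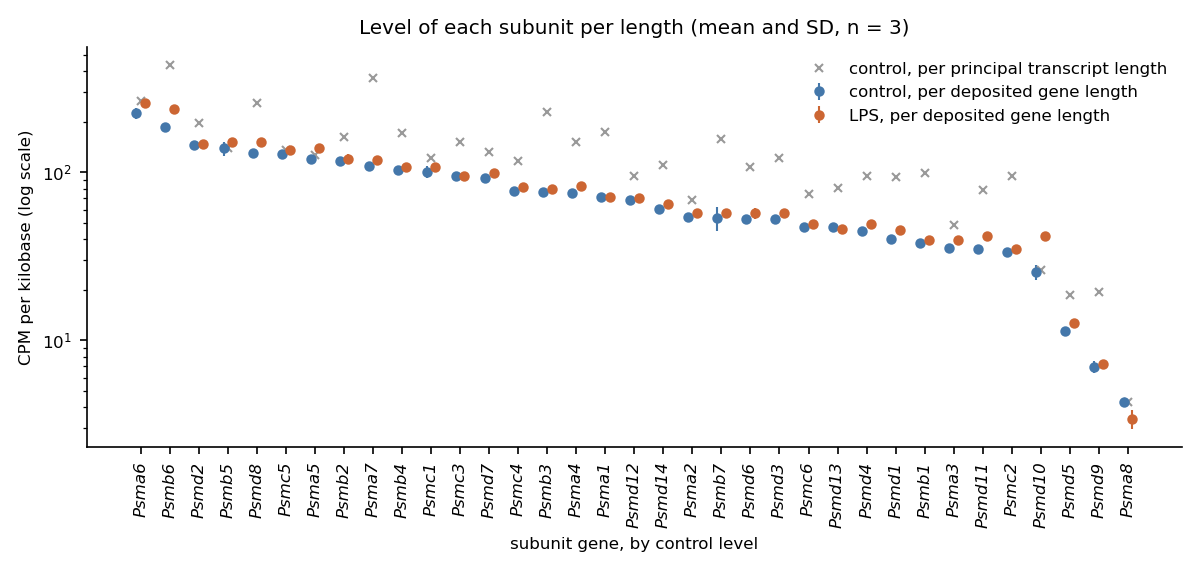
Level of each member other than Psmb11 in CPM per kilobase (log axis), as mean and SD of 3 libraries per group by the deposited gene length, ordered by the control level, with crosses for control by principal transcript length. The 3 base chaperones and Psma8 lie at the right end, and the 2 lengths give different orders for genes such as Psma7 and Psmb3.

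Summed over its genes, the 20S core was at 1481, 1358 and 1376 CPM per kilobase in control and 1622, 1505 and 1570.2 in LPS libraries, which did not overlap. The means were 1405 ± 66.1 and 1566 ± 58.5 (SD, n = 3 each), a log2 ratio of 0.16. The 19S particle was at 1252 ± 39.8 and 1336 ± 9.57, a log2 ratio of 0.094, also without overlap. Both separations were by TMM scaling. With total counts the log2 ratios were 0.058 and -0.00429, and the groups overlapped in both sums. Without control replicates 2 and 3 together the log2 ratios were 0.081 and 0.045. The ratio of 19S to 20S within a library, which needs no scaling, was 0.874 to 0.904 in control and 0.830 to 0.884 in LPS libraries, and these ranges overlapped.

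Beside the constitutive genes stand those that replace their catalytic subunits. Psmb8 (beta5i), Psmb9 (beta1i) and Psmb10 (beta2i) were all called higher, with log2 fold changes of 0.38 (SE 0.07, edgeR adjusted p = 6.0e-04), 0.72 (SE 0.12, edgeR adjusted p = 3.7e-04) and 0.71 (SE 0.05, edgeR adjusted p = 1.3e-08). Per gene length, their share of the catalytic total was 15.5% to 15.9% in control and 18.9% to 19.8% in LPS libraries. By pair, Psmb10 was 44.1% ± 3.07 of Psmb10 and Psmb7 in control and 54.3% ± 1.09 in LPS libraries, without overlap (SD, n = 3 each). Psmb8 was 15.5% ± 0.288 and 17.9% ± 0.522 of Psmb8 and Psmb5, also without overlap. Psmb9 was 1.76% ± 0.12 and 2.24% ± 0.412 of Psmb9 and Psmb6, and here the ranges overlapped. The level of a share depends on the length used: by principal transcript, Psmb10 was 25.8% and 34.4% of its pair and Psmb8 was 23.5% and 26.8%. Without control replicates 2 and 3 together, Psmb8 had a log2 fold change of 0.20 and was not called, nor was it in the test against a 1.2-fold change. Psmb9 shares 212 exonic bases with Tap1 on the other strand, which had 5151 counts.

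**Figure D5:**
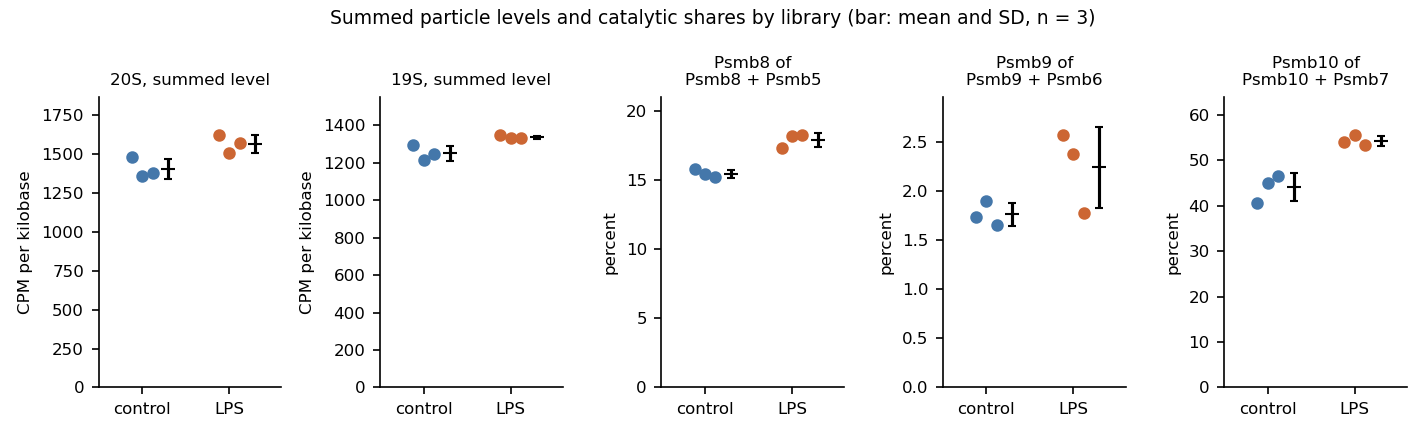
Summed level of the 20S and 19S genes (CPM per kilobase, scaled with TMM) and share of each inducible catalytic gene in its pair (percent), for each library with mean and SD (n = 3). The LPS points lie above the control points in all panels but that of Psmb9, where LPS replicate 3 at 1.77% lies within the control range.

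Of 37 other genes of the pathway, all tested and with Psmb8, Psmb9 and Psmb10 among them, 13 were called higher (35.1%, beside 18.7% of all genes) and 1 lower (2.7%, beside 15.7%), with a median log2 fold change of 0.084. In the CPM range of the members, 27.7% of all genes were called higher and 18.7% lower. Among 5 activators and inhibitors, Psme2 (PA28 beta, 0.89) and Psme1 (PA28 alpha, 0.24), which form a cap on the core that inflammatory signals induce, were called, while Psme4 (PA200) had 0.064. None of 5 assembly factors was called (largest values Psmg4 0.18, Psmg2 -0.12 and Psmg3 0.084). Of 6 other subunits and bound factors, Sem1, a lid subunit, rose by 0.25 and Adrm1, the ubiquitin receptor Rpn13, by 0.11, at an edgeR adjusted p of 0.0496, a call that was lost in 13 of 18 alternatives. Sem1 was not called in the test against a 1.2-fold change, with total counts, without control replicate 3, without LPS replicate 3 or without control replicates 2 and 3 together, where it had 0.11. The deubiquitinase Usp14 had 0.10 and was not called.

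Of 12 genes for ubiquitin, its activating enzyme and shuttle factors, those called included Ubb, a polyubiquitin gene, which rose by 0.34, the shuttle factor Rad23b, which rose by 0.22, and Ubqln2, another shuttle factor, which fell by 0.21. The call of Ubqln2 was lost in 5 of 18 alternatives, among them the fits without control replicate 2, without control replicate 3 and without LPS replicate 1, and without control replicates 2 and 3 together its value was -0.075. The largest value in that role, 0.47 for Rps27a, which encodes a ubiquitin fused to a ribosomal protein, was not called, and its level ranged from 183 to 395 CPM between control libraries. Of 6 genes tied to transcription of the proteasome genes, Nfe2l1 (0.38, edgeR adjusted p = 2.1e-06) and Nfe2l2 (0.27, edgeR adjusted p = 4.4e-04) rose and Nfyb (-0.22) was not called. Nfyc was called at 0.14 with an edgeR adjusted p of 0.047, and this call was lost in 13 of 18 alternatives. Nfe2l1, the factor that raises proteasome genes when the protease is inhibited, was at 354 ± 8.7 CPM in control and 462 ± 11.5 CPM in LPS libraries (SD, n = 3 each), and the groups did not overlap. Rad23b, Ubqln2 and Nfyc are named because they were called, after their values were seen.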

How the data were processed

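RNA-seq of 6 libraries of N9 cells was used, grouped by the labels into 3 control and 3 LPS libraries. The authors deposited whole-number read counts for 54532 genes, without normalization. Per the labels, the submitters' processing notes name featureCounts 1.5.0-p3 and the build mm10. The aligner and the use of strand are not given in the sources used here. The labels name no molecular identifiers that would tell copies of 1 molecule apart, so limits from a count of 3 cover counting error only. A further deposited table holds the authors' comparison (log2 fold changes and p-values), and it and its 20 columns of values per sample or group mean were not used. Positions and lengths are those of the deposited table, and GENCODE release M21 gave exon overlaps and principal transcripts.

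The counts were tested with edgeR 4.0.16 under R 4.3.3 (limma 3.58.1): TMM, filterByExpr by group, quasi-likelihood F test, prior count 0.125, prior degrees of freedom 10.1, and Benjamini-Hochberg adjustment over 12296 genes. SE is the size of the log2 fold change over the square root of F. CPM is scaled by TMM. Within groups, pairs of libraries differed by more than sampling noise (chi-square per gene 3.55 to 7.71). Alternatives were RLE, upper quartile and total-count scaling, DESeq2 1.42.0, no filter, a mean of at least 10 counts, robust dispersion, glmTreat against 1.2-fold, protein-coding genes alone, a replicate block, removal of a gene length trend (lowess span 0.3), each library left out, and control replicates 2 and 3 left out together. Figures used matplotlib 3.10.9 under Python 3.11.15 (pandas 2.3.3).

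The members and lists were chosen with earlier results of these data known. Full statistics are given by rule for the 8 called members of largest rise and fall, the catalytic subunits, Psmd14 and Psmd4, and pathway genes by counts and at most 3 values per role, the largest, to which the called genes Rad23b, Ubqln2 and Nfyc were added after their values were seen. On simulated counts for the LPS and control comparison, edgeR recovered 54 of 66 genes changed 1.3-fold, 67 of 68 changed 2-fold and 66 of 66 changed 4-fold, with 8 false calls among 12308 genes tested, and DESeq2 recovered 48, 66 and 66 with 8 false calls among 21216. The values of 1 gene of the pathway list are not reported here.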

Additional observations from a re-analysis of the deposited data

How the results depend on the processing

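The 11 members called higher became 6 with upper quartile factors, 4 with total counts, 2 in the glmTreat test against 1.2-fold and 6 without control replicates 2 and 3 together, and 6 to 16 when single libraries were left out. Of all 12296 genes tested, 2294 were called higher with TMM, 1845 with upper quartile factors, 1520 with total counts and 1026 in the glmTreat test. With total counts and in the glmTreat test, the share of the 35 tested members called higher was below that of all genes. The 0 called lower became 2 with total counts, beside 3342 of all genes, and 0 to 1 when single libraries were left out. The members' median, 0.099, became 0.051 with upper quartile factors, 0.0012 with total counts and 0.035 without both control libraries, a setting that left fewer samples, and lay between 0.063 and 0.114 with each library left out. The summed 20S log2 ratio, 0.16, was 0.058 with total counts and 0.081 without both control libraries, and the 19S ratio, 0.094, was -0.00429 and 0.045. The immunoproteasome share rose by 3.5 percentage points, and by 2.62 with principal transcript lengths, a setting added after seeing the data, as was leaving both control libraries out of the sums and shares. The number of a replicate gave no clear pairing of the libraries. Same-numbered libraries had correlations of 0.136, 0.0588 and -0.00415, and the others -0.144 to 0.0912. LPS replicates 1 and 2 were closest to the control of their own number, and LPS replicate 3 to control replicate 2. A shared effect of the replicate number was not tested. With a replicate block, 14 members were called higher, beside 2454 of all genes, and Psma1 turned to -0.0011.

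The genes that turned below 0 were uncalled on both sides. With total counts, which lower all genes alike, these were Psma1 (-0.098), Psma2 (-0.022), Psmb1 (-0.027), Psmb2 (-0.044), Psmb3 (-0.045), Psmb4 (-0.047), Psmc1 (-0.00013), Psmc2 (-0.032), Psmc3 (-0.091), Psmc4 (-0.033), Psmc5 (-0.025), Psmc6 (-0.037), Psmd2 (-0.066), Psmd9 (-0.0399), Psmd12 (-0.074), Psmg3 (-0.014) and Psme4 (-0.034). Upper quartile factors gave Psma1 -0.048, Psmc3 -0.042, Psmd2 -0.016 and Psmd12 -0.024. Without both control libraries, Psma1 was -0.031, Psmb2 -0.017, Psmb5 -0.019, Psmb7 -0.14, Psmc1 -0.016, Psmc3 -0.051, Psmc5 -0.0048, Psmd9 -0.063 and Psmd12 -0.0078. RLE factors gave Psma1 -0.0057, DESeq2 gave Psma1 -0.0064 and Psmc3 -5.7e-05, and no filter on low counts gave -0.0066 and -5.0e-04. With each library left out, Psma1 lay between -0.054 and 0.042, Psmb2 between -0.0039 and 0.089 and Psmc3 between -0.029 and 0.0296. The cause of these shifts was not tested. Among the members, Psma8 and Psmb11 had the lowest counts, and their values are the least precise.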
